A study of Drosophila melanogaster with 4 samples.

Results

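The mRNAs of the core cytoplasmic ribosomal proteins are the 76 genes, of 17699 in the count tables, whose FlyBase symbol starts with RpL, RpS or RpLP followed by a number and letters only, together with sta (stubarista), the gene of a small-subunit protein. The paralog genes RpS5a, RpS5b, RpS19a, RpS19b, RpL22, RpS10a, RpS10b, RpS28a and RpS28b were left out by this rule, and RpL37-1 and RpL37-2 fell outside it because of the hyphen. The gene of RpS12 was not matched by identifier and is not analysed here. Of the 76 genes, 29 encode proteins of the small subunit and 47 proteins of the large subunit. The encoded proteins ran from 25 residues (RpL41) to 416 residues (RpL3), with a median of 155.

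Polysome-seq was performed on Drosophila melanogaster ovaries enriched for differentiating germline cysts. All 4 libraries carried UAS-Dicer2 and NosGAL4 with bam RNAi, plus the transgene hs-bam. NosGAL4 uses the nanos promoter and acts in germ cells, extra Dicer-2 aids the knockdown of bam, and heat-induced bam then lets the arrested germ cells enter cyst stages. On 2 days the flies were heated to 37°C for 2 h, rested for 4 h and heated again for 2 h. The ovaries came from flies aged 3 to 5 days. Lysate was kept as input (libraries input 1 and input 3) or run on a sucrose gradient to collect polysomes (libraries polysome 1 and polysome 3). The somatic cells of the ovary were not removed. TRIzol was used to extract the input RNA, but phenol-chloroform the polysome RNA. The extraction and the fraction therefore cannot be told apart, and no label says that the numbered libraries come from separate groups of flies.

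As background, each ribosome holds 1 copy of most of these proteins, and flies that lack 1 gene copy of many of them develop slowly and have short bristles, the Minute phenotype. In animals, ribosomal protein mRNAs are short, very abundant, and start with a run of pyrimidines, the TOP motif, through which the TORC1 kinase and the protein Larp adjust their translation together. An mRNA that carries several ribosomes sediments in the polysome part of a gradient, while idle mRNAs and those with a single ribosome stay higher up. The length of a coding sequence limits how many ribosomes fit on it at once.

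Depth and cell makeup set the frame for the comparison. Gene counts totalled between 10646651 and 22647905 per library, and the smallest count of a detected member in any library was 460 (RpS15Ab in input 3), so counting error was small for all of them. bam, the gene that is both knocked down and supplied by the transgene, had 55.7 and 144 CPM (counts scaled to library size with TMM factors) in inputs 1 and 3, and 77.6 and 34.5 CPM in polysomes 1 and 3; with no library lacking these alleles this checks no label. The germline markers vas, bgcn and zpg were present in all libraries, with a sum of 311 to 395 CPM in the inputs and 402 to 469 CPM in the polysomes, but bgcn, with 42.8 and 50.1 CPM in inputs 1 and 3, had 88.2 CPM in polysome 1 and only 5.14 in polysome 3. The cyst markers summed to 308 to 516 CPM in the inputs and 264 to 352 CPM in the polysomes (2 of 3 lower). The escort and follicle markers summed to 903 to 1391 CPM and 756 to 760 CPM (3 of 4 lower), and the hemocyte markers to 1050 to 1481 CPM and 716 to 754 CPM (3 of 3 lower by log2 fold change). Of the escort and follicle markers only Fas3, and of the hemocyte markers only Col4a1, was below both inputs in both polysome libraries. Hml and NimC1 had 103 and 58.4 CPM in polysome 1, beside 85.4 and 51.1 CPM in input 1 and 105 and 38.4 CPM in input 3. In polysome 3 they had 20.6 and 4.24 CPM. Of the 13 eggshell and yolk genes all 13 had a log2 fold change above 0, with sums of 5312 to 5667 CPM in the inputs and 8903 to 15050 CPM in the polysomes. Both polysomes lay above both inputs for 10 of them, beside 1559 of all 9038 genes tested. Cp15, at 4.76 and 1.47 CPM in inputs 1 and 3, had 0.710 CPM in polysome 1 and 2617 CPM in polysome 3. Of 7 muscle genes all 7 were lower, with sums of 12677 to 18872 CPM against 4416 to 12119 CPM, the lowest sum in polysome 3. The part of these cell types in the values below was not tested. In such bulk samples fewer cells of a type and less RNA per cell cannot be told apart.

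The ribosomal protein mRNAs took a smaller share of the reads in polysomes than in input. They held 18.7% and 15.0% of gene counts in inputs 1 and 3, and 11.7% and 14.3% in polysomes 1 and 3. Both polysome shares thus lay below both input shares, with polysome 3 close to input 3. The mean polysome share was 0.770 of the mean input share, and 0.777 with eggshell and yolk genes left out of the totals. Leaving out 1 library in turn gave 0.692 to 0.867. The smallest two-sided p that an exact permutation test of 2 against 2 libraries allows is 0.333, and no other test was run on the shares. Per unit of length, in TPM (exon-length-scaled abundance), the pool made up 34.5%, 31.9%, 21.8% and 27.7% of the total in the same order. The small-subunit part of the pool moved little, with 37.7%, 38.0%, 36.8% and 38.1% of the pool's counts.

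**Figure D1:**
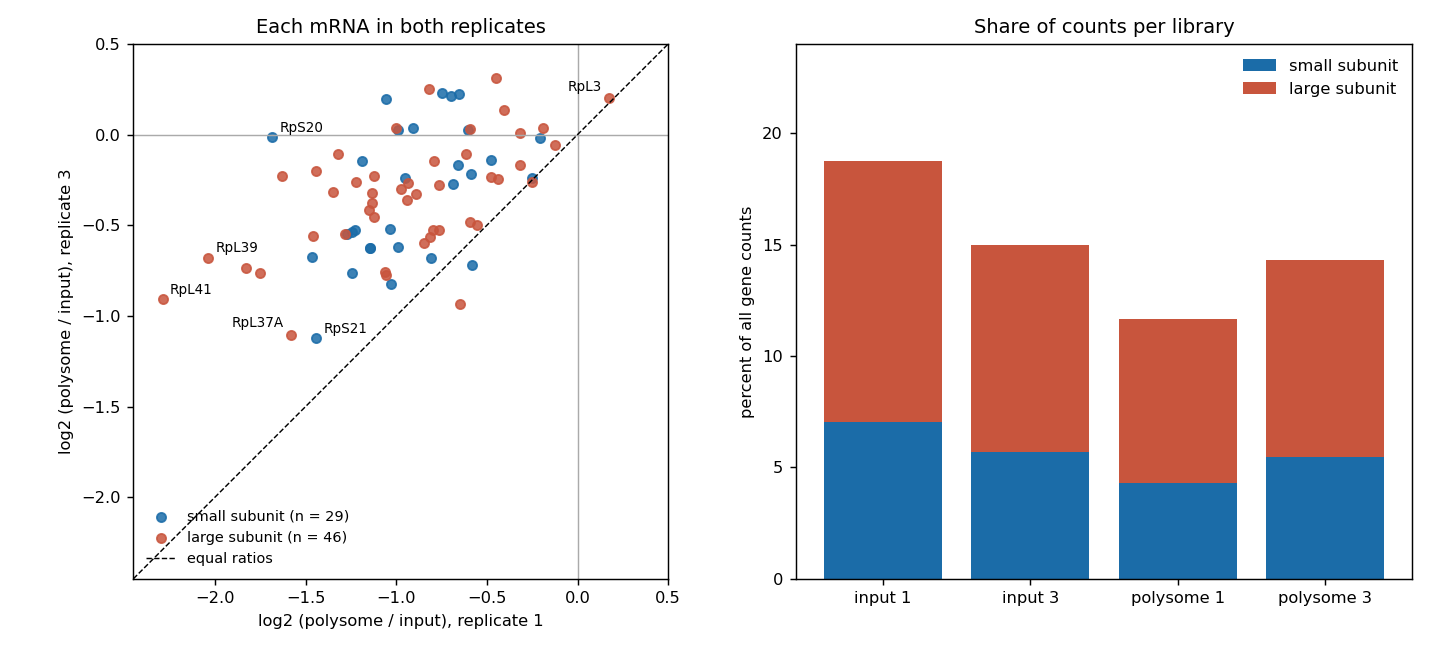
Left: log2 ratio of polysome to input CPM in replicate 1 (x axis) and replicate 3 (y axis), one point per tested ribosomal protein gene (29 small-subunit, 46 large-subunit), with the dashed line marking equal ratios; 72 of 75 points lie above it. Right: percent of all gene counts in each of the 4 libraries held by small- and large-subunit mRNAs, from 18.7% in input 1 to 11.7% in polysome 1.

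Levels in input spread widely around a common value. Per unit length, the median member stood at 4082 TPM in input 1 and 3627 TPM in input 3, and over the mean of both inputs the quartiles were 2882 and 5143 TPM for the 75 detected genes. RpL41, which encodes a very short peptide at the bridge between the subunits, was the most abundant at 25698 and 31076 TPM in inputs 1 and 3. RpS27A, which encodes a ubiquitin fused to a small-subunit protein, was next at 10749 and 9431 TPM. RpL23, the gene of an intersubunit bridge protein, followed with 8721 and 8333 TPM. The input values of these 3 genes do not overlap with one another. At the low end were duplicate genes, RpS15Ab with 161 and 91.1 TPM, RpL34a with 1024 and 1003 TPM, and RpS14b with 1811 and 653 TPM. RpL5, with 1491 and 1584 TPM, was also low, but its annotated exons span 3835 bases, which lowers a value per length. The TPM of a short mRNA depends strongly on its annotated ends, and the mRNA models of RpL41 and RpL39 are only 320 and 288 bases long.

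Nearly all members were lower in polysomes than in input, each by less than the test could separate from the spread between libraries. The log2 fold change of polysome over input was below 0 for 74 of 75 tested genes, where 50.2% of the 9038 genes tested lay below 0. Its median was -0.65 for the members, with quartiles of -0.80 and -0.37, and -0.0032 for all genes tested. At an adjusted p under 0.05 in edgeR's quasi-likelihood test 0 members were called, and percent called over all genes was 0 as well, with a smallest adjusted p of 0.956. Standard errors of single genes ran from 0.37 to 0.59. At an unadjusted p under 0.05, 11 members were lower and 0 higher, beside 2.53% of all genes that were lower. DESeq2 called 0 members too (smallest adjusted p = 0.123, for RpL37A), where it called 41 of all 9038 genes. At an unadjusted p under 0.05 in DESeq2, 27 members were lower, beside 4.25% of all genes.

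The libraries were also compared by their order. Both polysome libraries lay below both input libraries for 56 of 75 members and above them for 0 members. Over all 9038 genes tested, 18.1% lay below in this way, and 1559 genes lay above. The small subunit gave 20 of 29 such genes and the large subunit 36 of 46. The members share their 4 libraries and move together, so these counts are not independent observations.

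**Figure D2:**
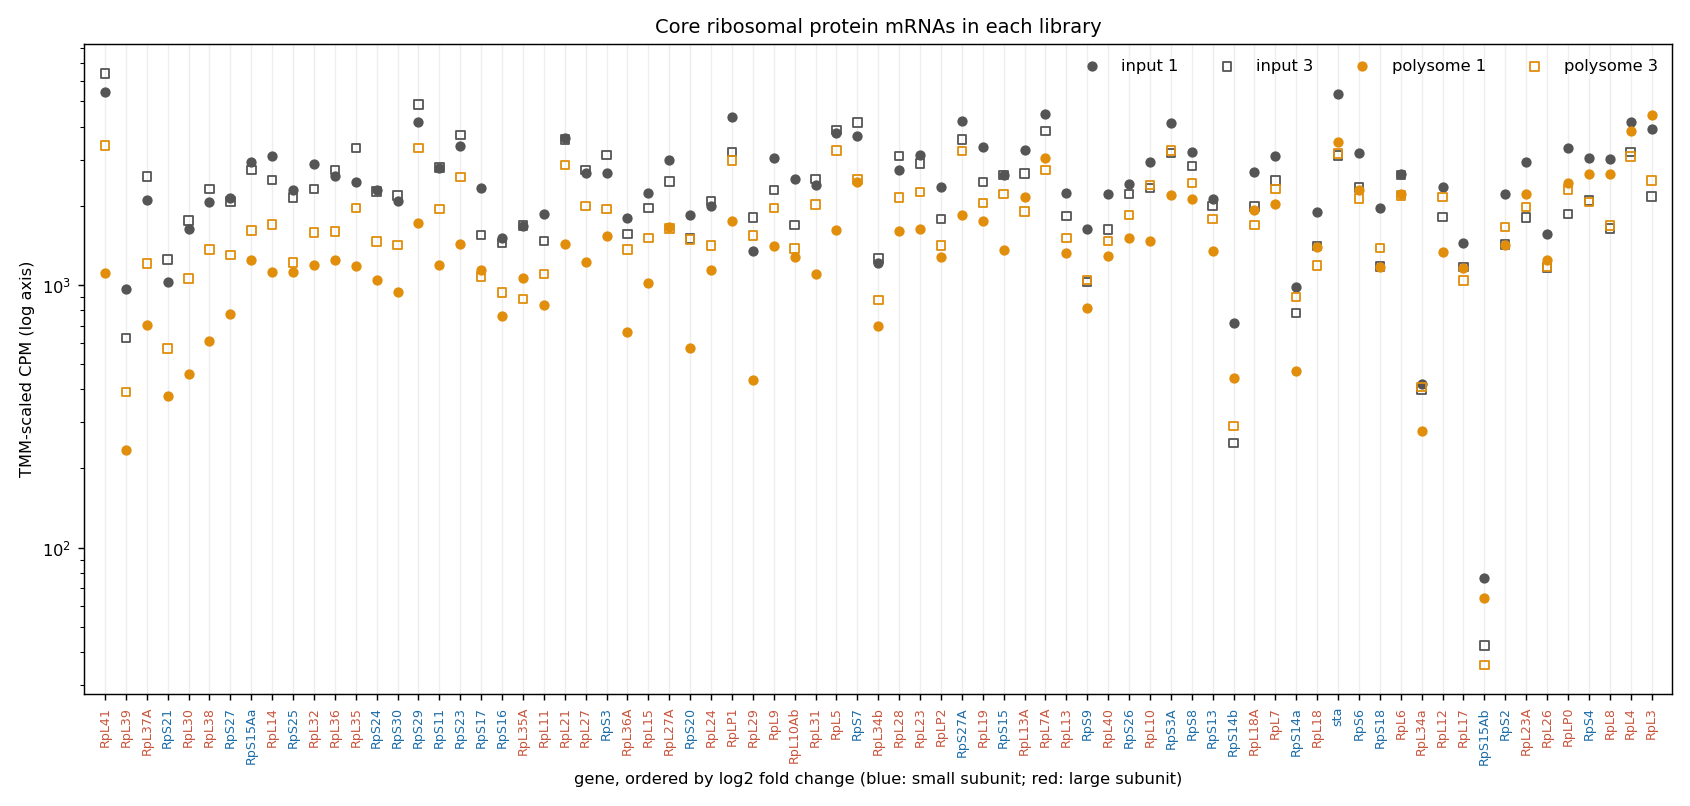
TMM-scaled CPM (log axis) of the 75 tested ribosomal protein genes in input 1, input 3, polysome 1 and polysome 3, with genes ordered from the lowest log2 fold change (RpL41, -1.39) to the highest (RpL3, 0.18) and names coloured by subunit. The polysome 1 points lie lowest for most genes on the left, and the points of the fractions mix on the right.

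The difference was larger in replicate 1. Each polysome library is here set against the input of the same number, as the study does with its corresponding lysates, although no label states that pairing. The median log2 ratio of polysome to input was -0.94 in replicate 1, with 74 of 75 genes lower, and -0.28 in replicate 3, with 60 of 75 lower. Over all 9038 genes tested the median ratio was 0.028 in replicate 1, with 4342 lower, and -0.10 in replicate 3, with 4844 lower. The ratio was more negative in replicate 1 for 72 of 75 genes, and 14 genes had opposite signs in the replicates. Across the 75 members, which share the libraries, the ratios of both replicates correlated at r = 0.52 and rho = 0.51. Of the 10 lowest genes in each replicate 4 were shared, RpL30, RpL37A, RpL38 and RpL41, and of the 10 highest 3 were shared, RpL23A, RpL3 and RpL8. RpS20 differed most between replicates: it was at 1853 and 576 CPM in input 1 and polysome 1, but at 1500.1 and 1487 CPM in input 3 and polysome 3. RpS20 and RpL23A were picked out after their values had been seen.

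The size of the difference also depends on which libraries are compared. Without polysome 3 the member median was -0.86, without polysome 1 -0.40, without input 1 -0.50 and without input 3 -0.68. RpL29 did not keep its direction, at -1.87 without polysome 3 and 0.025 without polysome 1. Where 1 library stands for a fraction, such a fit gives it the spread of the remaining pair, so calls in these refits were not read.

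Small- and large-subunit mRNAs did not separate. The median log2 fold change was -0.61 for the 29 small-subunit genes and -0.65 for the 46 large-subunit genes, a difference of 0.040. Within replicate 1 the medians were -0.99 and -0.91, and within replicate 3 they were -0.24 and -0.31, so the order of the subunits turned between replicates. The gap of 0.040 is far below the spread of 0.28 and 0.34 (SD) among the genes of each subunit. The 26 members overlapped on their own strand by snoRNA genes (58 in all) had a median of -0.64, and those without -0.65. Their proteins had median lengths of 199.5 and 148 residues, so these groups are not matched for length.

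Among the features compared, the length of the encoded protein tracked the fold change most closely. Across the 75 members, the log2 of protein length and the log2 fold change correlated at r = 0.74 and rho = 0.67, in replicate 1 at r = 0.76 and rho = 0.67, and in replicate 3 at r = 0.55 and rho = 0.53. These points share the same 4 libraries, and the relation was looked for after the values had been seen. It appeared in the small subunit (rho = 0.65, n = 29) and the large subunit (rho = 0.70, n = 46), and remained at rho = 0.65 (n = 73) without the shortest genes RpL41 and RpL39. It was weaker without polysome 1 (rho = 0.41) and with a length trend removed per library (rho = 0.38). That trend was fitted over genes on summed exon length, not on protein length. A least-squares line had a slope of 0.35 on the log2 scale for each doubling of the protein, and of 0.52 and 0.28 in replicates 1 and 3. The length of the whole mRNA gave a weaker relation (rho = 0.49), and the lengths of the 5′ UTR (rho = 0.085) and the 3′ UTR (rho = -0.024) and the number of exons (rho = 0.035) gave almost none. Input TPM correlated negatively with the fold change (rho = -0.49), although TPM contains the exon length itself and shares its input libraries with the fold change.

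**Figure D3:**
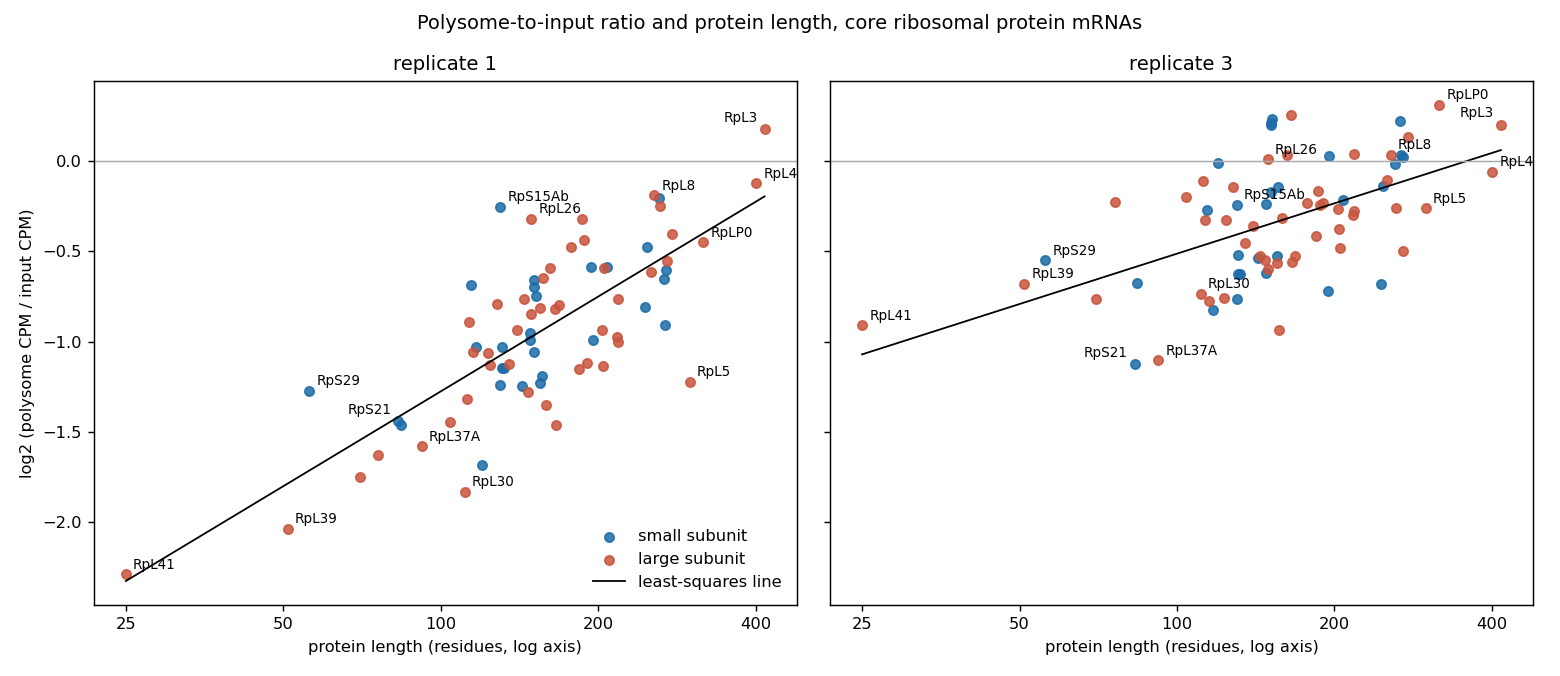
Protein length in residues (log axis) against the log2 ratio of polysome to input CPM for 75 ribosomal protein genes, in replicate 1 (left) and replicate 3 (right), with least-squares lines of slope 0.52 and 0.28 per doubling. RpL41, RpL39 and RpL37A lie at the lower left and RpL3, RpL4 and RpLP0 at the upper right in both panels.

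Length classes show the same order beside other genes. The 8 members under 100 residues had a median log2 fold change of -1.20, against -0.35 for the 235 other protein-coding genes of that length. For 100 to 149 residues the medians were -0.73 (25 members) and -0.0037 (410 others), for 150 to 199 residues -0.56 (20) and 0.060 (539), and for 200 to 299 residues -0.42 (19) and 0.13 (1093). From 300 to under 450 residues they were -0.10 (3) and 0.18 (1754). In each class the median member lay below the median of other genes of like length, and both medians were higher in each longer class. This order holds for the fit over both replicates. In replicate 3 alone the member median of the longest class was 0.20 against 0.18 for other genes, and the median of other genes was 0.22 in the class below. Other protein-coding genes at 450 residues or more, where there is no member, had a median of -0.054 (4471 genes). Over the 4031 other genes under 450 residues rho was 0.13, and over all 8502 it was -0.13. The difference between the members' relation and that of other genes was not tested.

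**Figure D4:**
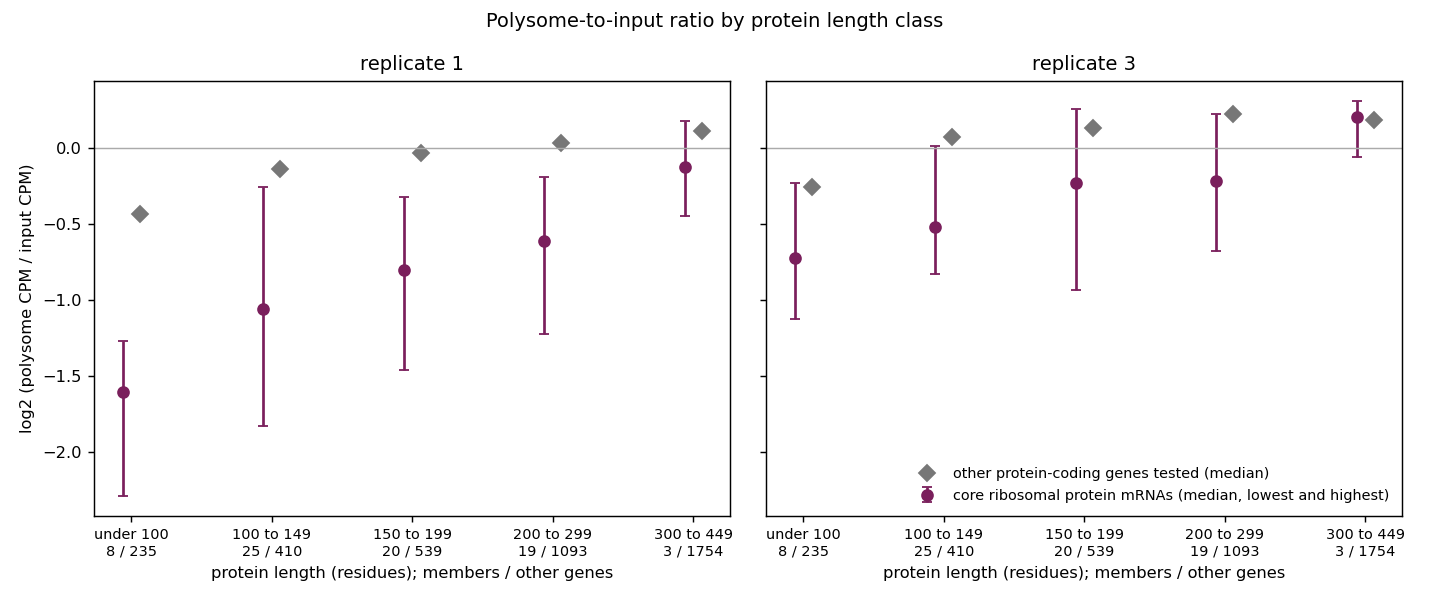
Log2 ratio of polysome to input CPM in 5 classes of protein length, in replicate 1 (left) and replicate 3 (right); circles are medians of ribosomal protein genes with bars from the lowest to the highest member, diamonds are medians of other protein-coding genes, and the numbers under each class give members and other genes. In replicate 1 the member median climbs from -1.60 under 100 residues to -0.12 in the class under 450 residues, and in replicate 3 from -0.72 to 0.20.

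The lowest fold changes in the large subunit were those of RpL41, RpL39, RpL37A, RpL30 and RpL38. RpL41 (chromosome 2R, 24903416 to 24903935, dm6) encodes 25 residues and had 5428 and 6377 CPM in inputs 1 and 3 against 1112 and 3400.0 CPM in polysomes 1 and 3, a log2 fold change of -1.39 ± 0.55 (SE, n = 2 libraries per fraction, as for all values below). Both polysome values lay below both inputs, and polysome 1 was by far the lowest. RpL39 (2R, 24061853 to 24062431), whose 51 residues line the peptide exit tunnel, was at 963, 628, 235 and 392 CPM in input 1, input 3, polysome 1 and polysome 3, a log2 fold change of -1.34 ± 0.46. Its input libraries also differed from each other, but the fractions did not overlap. Both values depend on the processing: with a length trend removed per library RpL41 was at -0.66 and RpL39 at -0.38, where the member median was -0.59, and with unstranded counts RpL39 was at -0.69. Both genes lie opposite another gene.

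RpL29 (76 residues), shorter than some of these genes, did not follow them, and was picked out after its values had been seen. It had 1344 and 1804 CPM in inputs 1 and 3 against 435 and 1541 CPM in polysomes 1 and 3, a log2 fold change of -0.67 ± 0.59. Only polysome 1 was low, and the fractions overlapped.

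RpL37A (2L, 5070957 to 5072055) encodes a zinc-binding protein of 92 residues. It was at 2103 and 2591 CPM in inputs 1 and 3 and at 704 and 1206 CPM in polysomes 1 and 3, a log2 fold change of -1.30 ± 0.44, and lay below the length line in both replicates. RpL38 (2R, 4515388 to 4516458; 70 residues), known in mouse for the translation of Hox mRNAs, had 2065, 2315, 613 and 1364 CPM in that order of libraries, a log2 fold change of -1.15 ± 0.48. Its mRNA of 1013 bases is long for this family because of a 3′ UTR of 719 bases. RpL30 (2L, 19008031 to 19009306; 111 residues), whose yeast counterpart controls the splicing of its own transcript, was at 1635, 1761, 459 and 1059 CPM, a log2 fold change of -1.16 ± 0.49. For RpL37A, RpL38 and RpL30 polysome 1 was lowest and polysome 3 second lowest, with no overlap of the fractions.

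The lowest small-subunit genes also encode short proteins. RpS21 (83 residues; 2L, 2856070 to 2857029), known in flies for overgrown larval tissues when mutant, was at 1026 and 1249.5 CPM in inputs 1 and 3 and at 378 and 574 CPM in polysomes 1 and 3, with a log2 fold change of -1.26 ± 0.42. RpS27 (84 residues; 3R, 25245955 to 25247514), a zinc-finger protein, was at 2144, 2075, 778 and 1300.4 CPM, a log2 fold change of -1.02 ± 0.42. The inputs of RpS27 nearly coincided and both polysome libraries lay well below them. RpS27 and RpS27A are among 5 members with an overlapping gene on their own strand, so reads that fall on both genes may be missing from their counts.

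RpS15Aa, RpS25 and RpS24, of 117 to 131 residues, had log2 fold changes of -0.99 ± 0.39, -0.93 ± 0.38 and -0.87 ± 0.40. For RpS25, needed in yeast and human cells for initiation at viral internal entry sites, the values were 2288 and 2155 CPM in inputs 1 and 3 and 1122 and 1215 CPM in polysomes 1 and 3. The polysome libraries of RpS25 were nearly equal. RpS29, at 56 residues the shortest small-subunit protein and a zinc-finger protein in the head of that subunit, was at 4165, 4857, 1726 and 3322 CPM, a log2 fold change of -0.84 ± 0.45, above the length line in both replicates. Its fractions did not overlap, but polysome 3 came close to the lower input.

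The genes of the longest proteins had ratios near 0. RpL3 (416 residues; 3R, 11221894 to 11225173), which reaches toward the peptidyl transferase centre, was at 3917 and 2168 CPM in inputs 1 and 3 and at 4421 and 2494 CPM in polysomes 1 and 3. It was the only member with a positive log2 fold change, 0.18 ± 0.47, and each polysome library lay above the input of its own number while the fractions overlapped. Its sign did not hold when libraries were left out: it was -0.18 without input 3 and -0.24 without polysome 1. RpL4 (401 residues; 3R, 27922821 to 27924888), which lines the exit tunnel, was at 4187, 3206, 3845 and 3077 CPM, a log2 fold change of -0.10 ± 0.39.

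RpL8 (256 residues; 3L, 2587456 to 2588883), which lies near the peptidyl transferase centre, was at 3008, 1640.1, 2637 and 1681 CPM in input 1, input 3, polysome 1 and polysome 3, a log2 fold change of -0.11 ± 0.46. In the small subunit the highest ratios were those of RpS4 (261 residues), RpS2 (267 residues), which sits at the mRNA entry channel, and the duplicate RpS15Ab. RpS4 was at 3036, 2095, 2634 and 2071 CPM, a log2 fold change of -0.13 ± 0.41. RpS2 was at 2220.5, 1423, 1413 and 1662 CPM, a log2 fold change of -0.24 ± 0.41. The fractions of all 3 genes with values here overlapped, and input 1 was the highest library of each. The signs of RpL4, RpL8, RpS4 and RpS2 turned positive without input 1, at 0.11, 0.39, 0.16 and 0.11.

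Some genes lay far from the length line. RpL5 (299 residues), which binds the 5S rRNA, was at 3773 and 3897 CPM in inputs 1 and 3 but at 1619 and 3248 CPM in polysomes 1 and 3, so that its log2 ratio of -1.22 in replicate 1 had a residual of -0.78 from the line and that of -0.26 in replicate 3 a residual of -0.19. RpL26 (149 residues), near the end of the exit tunnel, was at 1558, 1163, 1248 and 1172 CPM, a log2 fold change of -0.17 ± 0.39. In the fit over all libraries it had the highest residual of all members, 0.47. There RpL5 was at -0.37, and RpL37A was lowest at -0.41. The residuals of RpL26 in replicates 1 and 3 were 0.65 and 0.36, where RpS15Ab (0.82) and RpS18 (0.58) were highest. RpL5 and RpL26 were singled out after their values had been seen.

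The stalk of the large subunit, which recruits the elongation factors, is built on RpLP0 with RpLP1 and RpLP2 attached. RpLP0 (317 residues) was at 3326 and 1863 CPM in inputs 1 and 3 and at 2435 and 2310.2 CPM in polysomes 1 and 3, with a log2 fold change of -0.13 ± 0.43 and opposite signs in the replicates. RpLP1 (112 residues) was at 4363, 3212, 1748 and 2979 CPM, a log2 fold change of -0.68 ± 0.43. RpLP2 (113 residues) was at 2358, 1778, 1272 and 1415 CPM, a log2 fold change of -0.62 ± 0.39. The fractions overlapped for the long RpLP0 and did not for the short RpLP1 and RpLP2, though these differences are within the standard errors of single genes.

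The gene sta (270 residues; X, 1481797 to 1483413), the fly counterpart of the laminin receptor precursor, was at 5338 and 3113 CPM in inputs 1 and 3 and at 3512 and 3165 CPM in polysomes 1 and 3. Only input 1 stood clearly above the rest, and the log2 fold change was -0.34 ± 0.42, or 0.10 without input 1. The ubiquitin fusion genes RpS27A and RpL40 release ubiquitin and a ribosomal protein from 1 precursor. RpS27A was at 4200.1, 3580.5, 1843 and 3238 CPM in input 1, input 3, polysome 1 and polysome 3, a log2 fold change of -0.61 ± 0.43. RpL40 was at 2222, 1628, 1285 and 1471 CPM, a log2 fold change of -0.48 ± 0.40. In both genes the polysome libraries lay below both inputs, and both share ubiquitin-coding sequence with other genes, so their counts of uniquely mapped reads are uncertain.

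Some members are retained duplicates, and the split of reads within a pair varied between libraries. RpS14b held 42.2% and 24.2% of the counts of RpS14a and RpS14b in inputs 1 and 3 and 48.4% and 24.4% in polysomes 1 and 3, so the libraries numbered 1 had a larger share of RpS14b in both fractions. RpS15Ab held 2.54%, 1.52%, 4.91% and 2.18% of the counts of its pair, again higher in the libraries numbered 1 within each fraction. RpL34a held 25.7%, 24.1%, 28.4% and 31.8% of the counts of its pair, with both polysome shares above both input shares. Pairs of copies this alike can exchange or lose reads at the mapping step, so these splits are uncertain.

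RpL10Aa (3R, 15037366 to 15038149), an intronless copy of the gene of a protein of the L1 stalk, had 0 counts in all 4 libraries and was not tested. A count of 0 allows at most 0.292 and 0.276 CPM in inputs 1 and 3 and 0.142 and 0.123 CPM in polysomes 1 and 3, counting 3 reads per library as the floor. Its partner RpL10Ab was at 2519, 1693, 1281 and 1377 CPM, a log2 fold change of -0.66 ± 0.40, with both polysome libraries below both inputs. The floor covers counting error only.

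Translational efficiency, the log2 ratio of polysome TPM to input TPM with 1 added to each, placed the members below the average gene. The median was -0.62 in replicate 1 and -0.076 in replicate 3, against 0.32 and 0.086 over all genes tested, and 69 and 50 of 75 members lay below 0. Read relative to their own pool, with library sizes set to the members' summed counts, 43 of 75 members were lower and 32 higher. This scaling makes the members' total equal in all libraries, so members on both sides of 0 follow from it. At an unadjusted p under 0.05 in edgeR there were 0 members, beside 48 lower and 1050 higher of all 9038 genes. The smallest adjusted p of a member in edgeR was 0.464, for RpL39. On that scale RpL41 was at -0.87, RpL39 at -0.76 and RpL3 at 0.86, and the median over all genes moved to 0.61.

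Other genes of the translation machinery give the members a setting. Of the 9 paralog genes left out by the rule 8 were tested and 6 were lower, with a median log2 fold change of -0.52. RpS28b (65 residues) was at 3097 and 2896 CPM in inputs 1 and 3 and 1134 and 2036 CPM in polysomes 1 and 3, with a log2 fold change of -0.92 ± 0.43, while RpS5b, a germline-enriched copy, was at 0.42 ± 0.41. The 8 elongation factor genes had a median of -0.019, with eEF5 lowest at -0.65 ± 0.45. Among ribosome-associated proteins Rack1, a scaffold on the small subunit, was at 0.24 ± 0.46 and Nacalpha, a chaperone at the tunnel exit, at -0.31 ± 0.40. Of the mitochondrial ribosomal protein genes 71 were tested, 16 lower and 55 higher, with a median of 0.41; their median ratio was -0.013 in replicate 1 and 0.74 in replicate 3. None of these genes was called by edgeR.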

How the data were processed

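Input and polysome RNA of cyst-enriched ovaries was poly(A) selected, fragmented for 13 min and made into directional libraries. Per the submitters' processing notes reads were mapped to dm6 with STAR 2.6.1c; the annotation release is not given in the sources used here. The deposited values are whole-number counts of uniquely mapped reads per gene, not normalized, as the authors' STAR run wrote them, in an unstranded column and 1 column per strand. Column 4 held 95.3% to 97.1% of stranded gene counts and was used. Gene counts were 10646651 and 12298615 in inputs 1 and 3, and 19452659 and 22647905 in polysomes 1 and 3. The 4 lines that name no gene stayed out; they held 42.6%, 33.2%, 10.8% and 33.9% of reads in the same order, of which multimapping reads were 23.4%, 8.11%, 3.60% and 14.6% of all reads.

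The annotation BDGP6.54 release 115 supplied symbols, exon and protein lengths (longest coding sequence per gene) and coordinates; 138 identifiers were not in it. The 9038 genes kept by filterByExpr went through edgeR 4.0.16 (R 4.3.3) and its quasi-likelihood test (TMM factors, fraction as the only term, Benjamini-Hochberg adjustment, called under 0.05). Standard errors come from the test statistic. TPM used summed exon length and a pseudocount of 1. Nothing in the labels says that the 2 libraries of a fraction are separate cultures, and a p-value here reflects the spread among 4 libraries alone, which may be technical. Scripts were tested on simulated data.

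The fits were repeated with DESeq2 1.42.0, with RLE or upper-quartile factors, scaling to the members' pool, no filter, and at least 50 counts in 2 libraries. They were also repeated with unstranded counts, the replicate number as a block, leaving out each library, other pseudocounts, and adding the 9 paralogs. A further refit removed a trend over summed exon length in each library, called the length trend here. Members, gene lists and tests were chosen with earlier results of these data known. Named members were the 5 lowest and 3 highest per subunit by log2 fold change, the 2 most and 2 least abundant in input, sta, the stalk proteins, duplicates and ubiquitin fusions. Sequences, promoter motifs and the other stages of the study are not analysed here.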

Additional observations from a re-analysis of the deposited data

How the results depend on the processing

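Of 406 refits of the 29 tested named members, 374 kept their direction and their side of the threshold. Of the rest, 27 changed direction. The others crossed the threshold without polysome 3, where 1 library stood for the polysomes, and these calls were not read. Leaving out 1 library in turn, 0 to 6 members were called lower, the median log2 fold change was -0.86 to -0.40, the small minus large difference was -0.076 to 0.020, and the Spearman coefficient of protein length and fold change was 0.41 to 0.69. This Spearman coefficient was 0.53 with unstranded counts, 0.38 with the length trend removed and 0.41 with that and the replicate block. Scaled to the members' pool the median was -0.057 (small subunit -0.046, large subunit -0.062). On that scale 17 members had both polysomes below both inputs and 13 had both above. Of all 9038 genes tested, 4.92% lay below and 3896 genes lay above. RpL34a was at 0.32, RpL4 at 0.54, RpL40 at 0.13, RpL8 at 0.56 and RpLP0 at 0.51. RpS14a was at 0.20, RpS14b at 0.28, RpS15Ab at 0.43, RpS2 at 0.37, RpS4 at 0.52 and sta at 0.30. That scaling moves all genes up by construction; the cause of the other shifts was not tested. Leaving out 1 library in turn, the log2 fold change turned sign for 16 of 75 members. It ran from -0.24 to 0.67 for RpL3, -0.58 to 0.049 for RpL34a, -0.27 to 0.11 for RpL4, -0.48 to 0.39 for RpL8, -0.49 to 0.34 for RpLP0, -0.93 to 0.082 for RpS14a, -0.97 to 0.54 for RpS14b, -0.68 to 0.24 for RpS15Ab, -0.53 to 0.11 for RpS2, -0.37 to 0.16 for RpS4 and -0.68 to 0.10 for sta; the others were RpL29 (-1.87 to 0.025), RpL23A (-0.48 to 0.21), RpL26 (-0.36 to 0.053), RpL12 (-0.66 to 0.11) and RpS18 (-0.62 to 0.11).

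With the replicate number as a block, 0 members and 47 of all 9038 genes were called. The smallest adjusted p of a member by edgeR was 0.117, for RpL41. The member median was -0.65, and the block changed no call among the members. Deviations of same-numbered libraries correlated at r = -0.028 over 9038 genes and 0.64 over the 75 members. No label states a pairing, and the block stayed an alternative; ratios within a number follow the study's use of corresponding lysates. With unstranded counts 11 members moved by over 0.1, most of all RpS9 (0.77), which lies opposite another gene. The common biological coefficient of variation was 0.706 over all genes tested. Among the members only RpL10Aa, with 0 counts, failed the count filter.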
